A study of Mus musculus with 34 samples.

Results

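The sites described here are those where a SIN3A peak and a p65 peak overlap in Beta-TC6 cells, a mouse insulinoma line used as a model of the pancreatic β cell. They were found by laying 13109 SIN3A peaks over 31389 p65 peaks and taking every pair that shared at least 1 bp. There were 1638 such pairs, made of 1638 SIN3A peaks and 1637 p65 peaks, since 1 p65 peak touched 2 SIN3A peaks. They left 11471 SIN3A peaks without p65 and 29752 p65 peaks without SIN3A. Each peak was also placed 1 kb or less from an end of a protein-coding gene, called a gene end here and either the start or the finish of the gene, or farther away.

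The method was ChIP-seq, in which an antibody pulls down a protein with the DNA it sits on and that DNA is sequenced. SIN3A was mapped in 2 samples of wild-type (WT) cells given control siRNA, and p65 in 3 samples of WT cells whose titles name IL-1β. All cells of the series had been synchronized with forskolin at 10 µM for 1 h. The labels name no IL-1β for the SIN3A samples and no siRNA for the p65 samples, so the proteins were mapped in differently treated cells, and the sources used here give neither dose nor time of IL-1β. The labels do not say whether samples came from separate cultures. The deposited files hold 1 peak list for each group and no value per sample, so nothing below is a test between conditions. Shares of peaks are given with Wilson 95% intervals, which cover counting error only. Behind the lists stood 31047447 SIN3A tags and 53535237 p65 tags, of which 3.00% and 5.98% lay in peaks. Peak lists carry no expression, so the β-cell identity of the cells was not checked by their RNA.

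p65, encoded by Rela, is the transactivating subunit of the NF-κB family of transcription factors. In resting cells IκB proteins hold it in the cytoplasm. IL-1β acts through its receptor and the IκB kinases to destroy them, p65 then enters the nucleus, and among the genes it switches on are those of the IκB proteins themselves. SIN3A has no DNA-binding domain of its own that reads a sequence. It is the scaffold of a corepressor complex that carries histone deacetylases to promoters through the factors bound there.

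Promoters from each class of site show the letters behind these peaks. The 300-base windows run 250 bases before to 50 bases after a start, on the strand of the gene, from RefSeq's GRCm38.p6 annotation, and capitals mark matches to the 10-letter κB consensus. At Tnfaip3 (chr10:19015361-19015660, minus strand), Nfkb2 (chr19:46304487-46304786, plus), Nfkbie (chr17:45555450-45555749, plus) and Nfkbid (chr7:30422156-30422455, plus) the SIN3A and p65 peaks overlap. Trmt61a (chr12:111677855-111678154, plus) and Psme3 (chr11:101315963-101316262, plus) stand for SIN3A without p65. Nfkbia (chr12:55492598-55492897, minus) and Ccl20 (chr1:83116516-83116815, plus) stand for p65 without SIN3A. Nfkbia does have SIN3A peaks outside this window, and its nearest SIN3A and p65 centres are 230 bp apart.
Tnfaip3: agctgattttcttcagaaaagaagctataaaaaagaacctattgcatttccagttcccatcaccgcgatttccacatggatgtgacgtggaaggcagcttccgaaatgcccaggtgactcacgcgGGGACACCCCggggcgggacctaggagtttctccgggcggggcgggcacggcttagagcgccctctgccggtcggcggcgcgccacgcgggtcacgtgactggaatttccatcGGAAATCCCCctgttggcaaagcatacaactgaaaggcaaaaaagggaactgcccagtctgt
Nfkb2: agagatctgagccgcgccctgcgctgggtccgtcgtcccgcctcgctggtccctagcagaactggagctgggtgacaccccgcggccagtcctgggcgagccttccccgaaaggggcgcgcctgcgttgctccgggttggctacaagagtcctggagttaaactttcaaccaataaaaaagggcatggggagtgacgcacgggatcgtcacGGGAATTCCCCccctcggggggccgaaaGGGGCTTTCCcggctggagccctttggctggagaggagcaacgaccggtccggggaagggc
Nfkbie: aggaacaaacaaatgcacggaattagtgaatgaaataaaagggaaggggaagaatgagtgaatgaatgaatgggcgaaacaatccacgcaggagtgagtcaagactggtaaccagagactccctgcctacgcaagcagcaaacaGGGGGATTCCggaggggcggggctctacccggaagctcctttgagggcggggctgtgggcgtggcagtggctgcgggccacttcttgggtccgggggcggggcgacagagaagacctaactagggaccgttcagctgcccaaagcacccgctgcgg
Nfkbid: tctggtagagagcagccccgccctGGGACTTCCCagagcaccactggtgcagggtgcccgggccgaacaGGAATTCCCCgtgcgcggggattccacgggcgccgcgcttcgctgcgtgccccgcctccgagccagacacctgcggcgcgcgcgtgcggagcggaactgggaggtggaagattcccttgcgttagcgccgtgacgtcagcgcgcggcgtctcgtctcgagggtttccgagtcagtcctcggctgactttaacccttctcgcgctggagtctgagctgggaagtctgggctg
Trmt61a: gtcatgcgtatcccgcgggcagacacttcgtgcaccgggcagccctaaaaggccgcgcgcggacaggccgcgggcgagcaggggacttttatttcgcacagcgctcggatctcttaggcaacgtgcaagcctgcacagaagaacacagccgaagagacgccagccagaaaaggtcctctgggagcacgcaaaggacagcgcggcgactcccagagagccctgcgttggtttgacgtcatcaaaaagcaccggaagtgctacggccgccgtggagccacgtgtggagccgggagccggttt
Psme3: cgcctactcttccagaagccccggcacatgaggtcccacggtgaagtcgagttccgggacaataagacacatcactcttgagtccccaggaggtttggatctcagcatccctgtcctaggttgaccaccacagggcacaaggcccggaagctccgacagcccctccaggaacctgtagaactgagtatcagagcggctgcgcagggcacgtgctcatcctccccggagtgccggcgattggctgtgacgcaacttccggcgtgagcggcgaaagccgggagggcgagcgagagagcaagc
Nfkbia: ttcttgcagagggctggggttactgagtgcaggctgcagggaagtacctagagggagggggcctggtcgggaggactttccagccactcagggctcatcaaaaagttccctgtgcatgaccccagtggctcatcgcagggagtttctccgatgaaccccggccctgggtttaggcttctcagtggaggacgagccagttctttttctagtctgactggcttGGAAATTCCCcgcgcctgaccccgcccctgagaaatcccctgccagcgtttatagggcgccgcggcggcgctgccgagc
Ccl20: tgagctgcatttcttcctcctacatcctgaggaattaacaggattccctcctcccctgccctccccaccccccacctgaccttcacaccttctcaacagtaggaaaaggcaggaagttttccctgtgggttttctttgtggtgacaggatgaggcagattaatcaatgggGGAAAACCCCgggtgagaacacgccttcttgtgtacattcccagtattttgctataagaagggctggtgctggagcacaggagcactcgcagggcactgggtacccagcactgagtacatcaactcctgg
In the Nfkbid and Nfkbie windows every capital run lies inside both peaks. In the Nfkb2 window all 3 matches, of which the first pair overlap each other, lie inside the p65 peak and none inside the SIN3A peak, which begins upstream. The window of Ccl20, a chemokine gene, holds 3 CpG dinucleotides, against 35 in that of Nfkbid. Letters for the sites away from promoters were not used here.

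Overlapping sites made up 12.5% of SIN3A peaks (11.9 to 13.1%) and 5.22% of p65 peaks (4.97 to 5.47%). The shares ran in opposite directions with distance from genes. Of the SIN3A peaks away from gene ends, 740 of 4165 overlapped p65 (17.8%, 16.6 to 19.0%), against 898 of 8944 at gene ends (10.0%, 9.43 to 10.7%). Of the p65 peaks away from gene ends, 743 of 28109 overlapped SIN3A (2.64%, 2.46 to 2.84%), against 894 of 3280 at gene ends (27.3%, 25.8 to 28.8%). By count, 68.2% of SIN3A peaks lay at gene ends and 89.6% of p65 peaks away from them. For each protein the shared part was higher in the distance class that held most peaks of the other. These are counts and not densities per length of DNA, and the cause of the opposite directions was not tested. Of p65 peaks centred within 100 bp of a gene end, 41.0% overlapped SIN3A, and 1.5% of those over 50 kb away. The overlapping share of SIN3A peaks was 11.8% within 100 bp and 24.8% over 50 kb away. Just inside the limit of 1 kb, between 900 and 1000 bp, 16 of 165 SIN3A and 16 of 181 p65 peaks were shared. Between 1000 and 1100 bp, 17 of 115 SIN3A and 22 of 150 p65 peaks were.

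**Figure D1:**
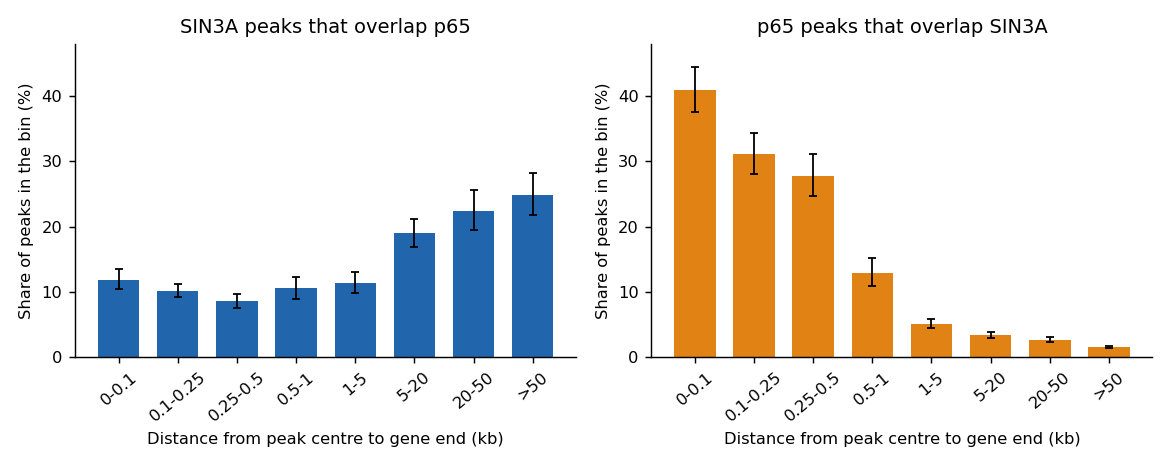
Share of SIN3A peaks that overlap p65 (left) and of p65 peaks that overlap SIN3A (right), in %, by distance in kb of the peak's centre from the nearest end of a protein-coding gene. Bars are shares and lines Wilson 95% intervals; the p65 share is 41.0% within 0.1 kb and 1.5% over 50 kb away, and the SIN3A share is highest over 50 kb away, at 24.8%.

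Not every site counted as away from gene ends was away from a start, since genes have internal starts. Of the SIN3A peaks away from gene ends, 1180 lay within 1 kb of a start listed by RefSeq, and 114 of these were shared (9.66%). Of the 2985 with no listed start so near, 626 were shared (21.0%, 19.5 to 22.5%). For p65 the same division gave 112 of 525 shared near a listed start (21.3%) and 631 of 27584 elsewhere (2.29%). For both proteins the share near internal starts was closer to that at gene ends than to that of the remaining sites.

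Away from gene ends, the share of p65 peaks that overlapped SIN3A rose with each quartile of p65 tag count. At gene ends only the lowest quartile stood apart, with a lower share. The tag count of a peak is the number of sequenced fragments in it, scaled by the authors to 10 M tags. Away from gene ends, 5.12% of p65 peaks in the highest quartile of the list overlapped SIN3A, against 0.474% in the lowest. At gene ends the share was 28.6, 28.8 and 29.4% in the upper 3 quartiles and 17.5% in the lowest. SIN3A ran the other way: away from gene ends 21.3% of its lowest quartile overlapped p65, against 11.2% of its highest. Of the 100 p65 peaks with most tags, 20 overlapped SIN3A (13.3 to 28.9%), beside 5.22% of all p65 peaks. Of the 100 SIN3A peaks with most tags, 9 overlapped p65 (4.81 to 16.2%), an interval that holds the 12.5% of all SIN3A peaks. Both peaks were in the highest quartile of their lists at 131 pairs (8.0%). That was 11.2% (9.34 to 13.5%) of pairs at gene ends and 4.05% (2.85 to 5.73%) away from them. Of the shared SIN3A peaks, 254 of 898 at gene ends and 57 of 740 away were in the highest quartile. For shared p65 peaks these were 329 of 894 and 343 of 743. Whether both fell in the highest quartile together more often than these counts give was not tested.

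**Figure D2:**
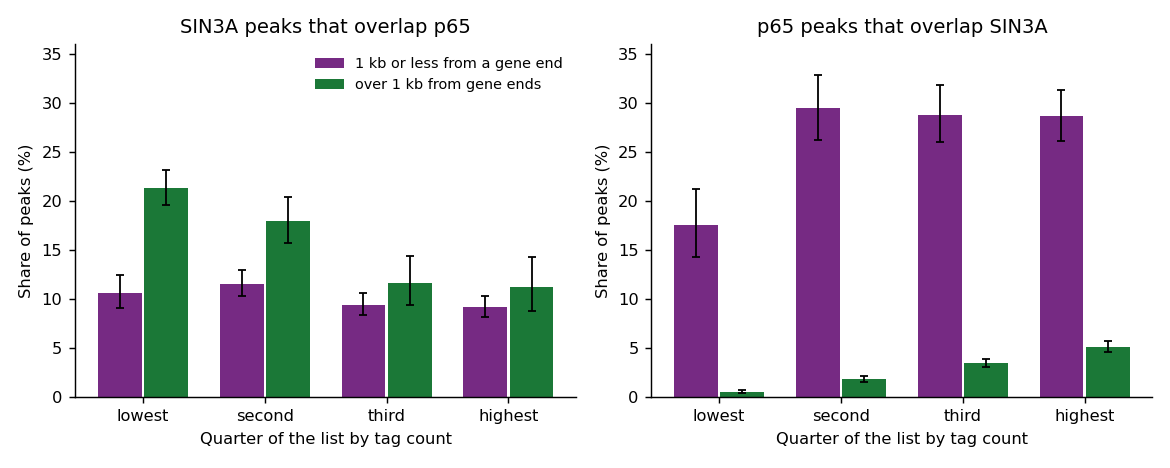
Share of SIN3A peaks that overlap p65 (left) and of p65 peaks that overlap SIN3A (right), in %, in 4 equal groups of each list by tag count, at gene ends (purple) and away from them (green), with Wilson 95% intervals. Away from gene ends the p65 share is 0.474% in the lowest quartile and 5.12% in the highest, and the SIN3A share is 21.3% in the lowest and 11.2% in the highest.

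Shared SIN3A peaks away from gene ends had a median of 11 tags, against 13.2 tags for SIN3A peaks there without p65, and at gene ends 21.3 against 23.2 tags. Shared p65 peaks had a median of 18.3 tags away from gene ends, against 9.71 for p65 peaks without SIN3A, and at gene ends 14.6 against 13.4 tags. The input libraries, sequenced without immunoprecipitation, also differed between the classes. Input tags are on another scale than the tag counts above, so the fold over input is not their ratio. Shared p65 peaks held a median of 7 input tags and an enrichment of 6.85-fold over input, against 3 input tags and 9.55-fold for p65 peaks without SIN3A. Shared SIN3A peaks held 3 input tags at the median and 10.8-fold enrichment, against 3 tags and 11.9-fold for those without p65. When both lists were limited to peaks at 8-fold over input or more, 4.59% of SIN3A and 2.37% of p65 peaks were shared. The part that input played in the overlap was not tested.

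Within a pair the peaks were usually offset. Their centres lay a median of 97 bp apart (quartiles 48 and 152 bp), where peak widths of 225 and 206 bp allow at most 215 bp. At 26.7% of pairs the centres were within 50 bp and at 25.3% over 150 bp apart, and 130 pairs overlapped by 20 bp or less. A further 534 SIN3A peaks missed p65 by a gap of at most 100 bp. Pairs away from gene ends were closer, with a median of 86.5 bp, against 105 bp at gene ends. Across pairs, SIN3A and p65 tag counts had a Spearman rho of 0.19 over the 898 pairs at gene ends, 0.08 over the 740 away from them and 0.06 over all 1638, a description of sites that share local DNA.

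Around gene starts the proteins had different positions. SIN3A centres lay downstream of the start, at a median of +114.5 bp for 712 shared peaks and +135 bp for 6632 without p65. Shared p65 centres lay at a median of +36 bp (710 peaks), against -71 bp for 1752 p65 peaks without SIN3A. So 59.0% (55.4 to 62.6%) of shared p65 peaks were centred downstream of the start, against 41.0% (38.7 to 43.3%) of the p65 peaks without SIN3A. The peaks above were of either distance class and had no start on the other strand within 1 kb. Among 673 pairs at gene ends with a listed start within 1 kb, on either strand, SIN3A was the more downstream peak in 405 (60.2%, 56.4 to 63.8%). Without pairs that had a start on the other strand within 1 kb, it was so in 363 of 599 (60.6%, 56.6 to 64.4%). The peaks had to overlap to be shared, which ties their positions to each other by construction.

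**Figure D3:**
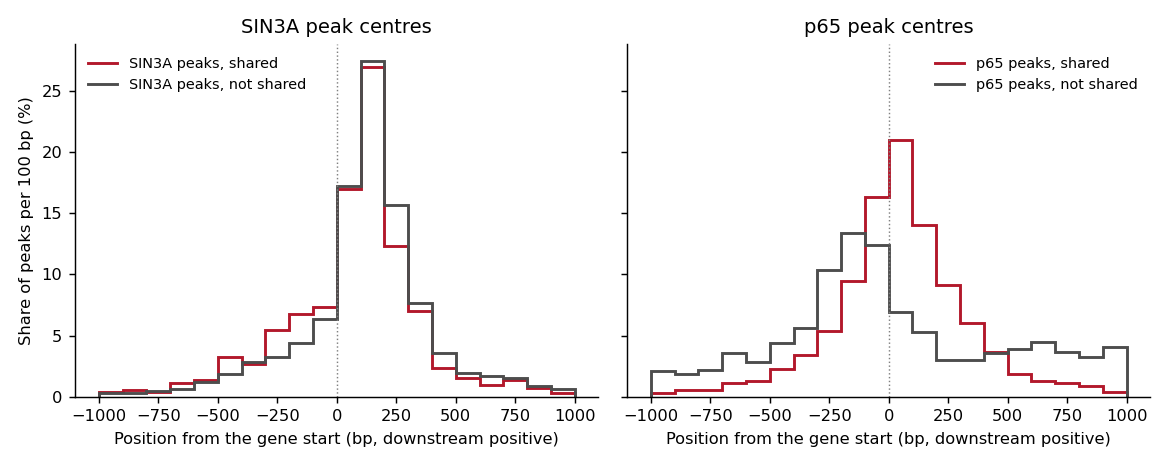
Positions of SIN3A (left) and p65 (right) peak centres around the nearest listed gene start, in bp with downstream positive, for shared peaks (red) and peaks of the same protein that are not shared (grey), as % of the class per 100 bp. Shared p65 peaks centre at a median of +36 bp and unshared p65 peaks at -71 bp, while both classes of SIN3A peak lie downstream.

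Shared promoters were as CpG-rich as SIN3A promoters without p65, and held the κB consensus more often than these but less often than p65 promoters without SIN3A. Of 21263 windows, from 17492 of the 21887 protein-coding genes, 674 overlapped a shared peak, 4455 SIN3A without p65 and 829 p65 without SIN3A. The median observed over expected CpG ratio was 0.816 in shared windows and 0.834 with SIN3A alone, against 0.690 with p65 alone and 0.567 over all windows. CpG-rich promoters are typical of broadly expressed genes. The κB consensus, searched on both strands, was in 160 of 674 shared windows (23.7%, 20.7 to 27.1%), against 7.90% (7.14 to 8.73%) with SIN3A alone, 30.3% (27.2 to 33.5%) with p65 alone and 9.25% of all windows. The 223 windows with peaks of both proteins that did not overlap had the consensus in 25.6% (20.3 to 31.7%) and a CpG ratio of 0.828, so neither value was particular to overlapping sites. This consensus was added after the values of shorter patterns had been seen. In the highest quartile of p65 tags it was in 41.1% (34.8 to 47.7%) of shared windows and 43.8% (38.4 to 49.3%) of windows with p65 alone. In the lowest quartile it was in 8.33% (3.61 to 18.1%) of shared windows and 18.7% (12.8 to 26.5%) of windows with p65 alone. The intervals of these 2 classes overlapped in each quartile. These quartiles cover 588 of the 674 shared windows, since in the other 86 the p65 peak of the pair lies outside the window. Windows end 50 bases after the start, and shared p65 peaks centred farther downstream than those without SIN3A. What this did to the shares was not tested.

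The shorter patterns, which overlap the consensus and each other, gave a like picture. GGANNTTCC was in 8.75% of shared windows, 3.30% with SIN3A alone, 14.0% with p65 alone and 4.36% of all. GGANNNNCC was in 67.5, 58.6, 73.1 and 51.9% of the windows in that order. The ETS core CCGGAAG and the GC box GGGCGG, letters common in CpG-rich promoters, stood in 23.7% and 74.2% of shared windows, close to the 24.8% and 72.2% with SIN3A alone. With p65 alone they stood in 11.9% and 62.0%, and in all windows in 11.6% and 46.2%. The E-box CACGTG, which clock proteins and MYC family proteins can bind, was in 13.9% of shared windows, 12.9% with SIN3A alone, 8.56% with p65 alone and 7.84% of all. The AP-1 site TGANTCA was in 3.41% of shared windows, 3.41% with SIN3A alone, 7.84% with p65 alone and 6.99% of all. The homeobox core TAATTA was in 1.63%, 1.66%, 3.50% and 4.53% of the same classes. All motifs were searched on both strands, and a match describes the letters only.

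The pairs at gene ends that ranked highest in both lists were at Mnt, Endov, Thg1l, Itpkc, Birc5, Prkab2, Ptpn2, Pus1, Patl1 and Klf10. At Mnt, whose protein binds MAX and recruits SIN3 in place of MYC, the SIN3A peak had 74.1 tags and the p65 peak 119.7 tags, with centres 19 bp apart. Birc5, which encodes the mitotic and survival protein survivin, had 48.6 SIN3A and 60.7 p65 tags. Klf10, an immediate early zinc finger gene, had 46.1 SIN3A and 129.3 p65 tags. Ptpn2, a phosphatase that restrains JAK and STAT signalling in β cells, had 48 SIN3A and 176.7 p65 tags. The first 10 away from gene ends were at Kansl1, Nfkb2, Ptov1, Akain1, Herpud1, Lrrc75a, Dusp4, Scp2, Nt5c2 and Khdrbs1. Nfkb2 led them in p65, with 509.2 tags beside 40.6 SIN3A tags, 3565 bp inside the gene and at one of its listed starts. Herpud1, of endoplasmic reticulum protein degradation, had 35.8 SIN3A and 61.3 p65 tags, 1082 bp inside the gene.

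Most peaks of either list were not shared, and most of the most heavily tagged were not either. Among p65 peaks the 100 with most tags were still shared more often than the whole list, at 20% against 5.22%. SIN3A without p65 was led at gene ends by Tcp11l2, Trmt61a, Borcs8, Psme3 and Naa25, with 163.9, 163.6, 147.2, 138.5 and 128.2 tags. Trmt61a encodes a tRNA methyltransferase and Psme3 a proteasome activator, genes with broad cellular roles. Its highest peaks farther away were at chr1:195241609-195241833, with no gene within 50 kb, at Csf2ra in 2 places, and at Adh5 and Foxk1. The first had 278.3 tags but 107 input tags and 4.17-fold enrichment, and the Csf2ra peaks had 72 and 40 input tags. Adh5 had 142.7 tags, 3 input tags and 76.4-fold enrichment. Tag counts and input tags are on different scales here too. p65 without SIN3A was led at gene ends by Junb (538.7 tags), Nfkbia (509.8 and 424.2 tags at 2 peaks), Kcnn1 (472.6) and Atg16l2 (334.5). Away from them it was led by Zzef1 (503.6), Pecam1 (432.8), Ccdc18 (395.6), Tmem200a (387.2) and Tenm3 (384.0).

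Away from gene ends, shared SIN3A peaks lay under peaks of PDX1 more often than SIN3A peaks without p65 did. PDX1 is a homeodomain factor that β cells need to stay β cells. In WT cells with IL-1β, 45.9% (42.4 to 49.5%) of shared SIN3A peaks away from gene ends lay in the PDX1 list, against 10.3% (9.33 to 11.4%) of SIN3A peaks there without p65. In WT control cells the shares were 41.4% (37.9 to 44.9%) for shared SIN3A peaks and 12% (10.9 to 13.1%) for those without p65. Over all SIN3A peaks 6.2% lay in the IL-1β list of PDX1 and 6.83% in the control list. The difference was present in each quartile of SIN3A tags: 59.0% against 16.6% in the lowest quartile and 10.5% against 2.22% in the highest. At gene ends 4.68% of shared SIN3A peaks lay in the IL-1β list, against 0.969% of those without p65. Seen from p65, 47.6% (44.1 to 51.2%) of shared peaks away from gene ends were in the IL-1β list of PDX1, against 36.3% (35.7 to 36.9%) of p65 peaks there without SIN3A. Within quartiles of p65 tags, highest first, the shares were 51.6% against 46.8%, 51.3% against 39.1%, 35.4% against 34.6% and 28.6% against 26.2%. The intervals overlapped in every quartile but the second highest. At gene ends the p65 order was reversed, with 5.93% of shared peaks, against 11.6% of p65 peaks without SIN3A. Over all p65 peaks 33.8% lay in the IL-1β list of PDX1 and 25% in the control list. Of the 740 shared SIN3A peaks away from gene ends, 273 (36.9%) had PDX1 in both WT conditions, and of the 898 at gene ends 21 (2.34%). The antibody label of the IL-1β PDX1 samples names p65 while their titles name PDX1. The title was followed, and whether p65 DNA is in that list was not tested.

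**Figure D4:**
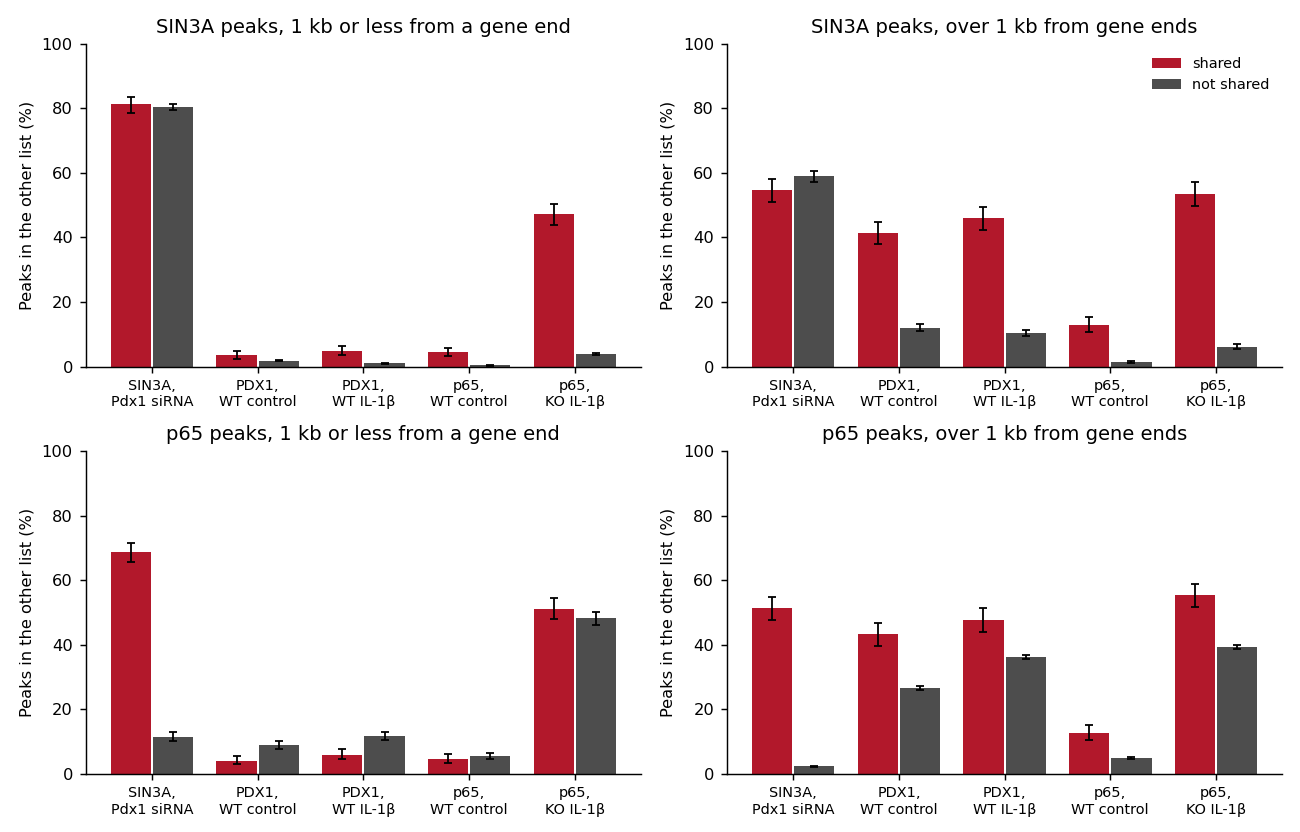
Share of SIN3A (top) and p65 (bottom) peaks found in 5 other peak lists of the series, in %, at gene ends (left) and away from them (right), for shared (red) and unshared (grey) peaks with Wilson 95% intervals. Away from gene ends 45.9% of shared SIN3A peaks and 10.3% of unshared ones are in the IL-1β PDX1 list; KO is the Bmal1 knockout.

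Shared SIN3A peaks were found again after Pdx1 siRNA about as often as the others. Cells given Pdx1 siRNA had their own SIN3A list, which held 73.5% of all SIN3A peaks and 6.02% of all p65 peaks. At gene ends it held 81.3% (78.6 to 83.7%) of shared SIN3A peaks, against 80.5% (79.6 to 81.4%) of those without p65. Away from gene ends it held 54.6% (51.0 to 58.1%), against 59.0% (57.4 to 60.6%). In the highest quartile of SIN3A tags there it held 98.2% of 57 shared peaks (90.7 to 99.7%), against 89.1% (85.9 to 91.7%) of the others, and in the lowest 37.9% against 39.1%.

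p65 was also mapped in WT control cells and, with IL-1β, in Bmal1 knockout cells, where the circadian clock is without its activator BMAL1. The control list held 5.07% of all p65 peaks and 1.63% of all SIN3A peaks. Away from gene ends it held 12.5% (10.3 to 15.1%) of shared p65 peaks, against 4.86% (4.61 to 5.12%) of p65 peaks without SIN3A, and in the highest quartile of p65 tags 18.1% against 9.52%. At gene ends it held 4.59% against 5.41%, with intervals that overlap. The knockout list held 40.7% of all p65 peaks and 10.2% of all SIN3A peaks, with 55.3% of shared p65 peaks away from gene ends, against 39.3% of those without SIN3A. That order did not hold among peaks of like tag count. In the highest quartile the knockout list held 80.2% (75.6 to 84.0%) of shared peaks, against 88.0% (87.2 to 88.8%) of the others. In the next it held 45.4% against 48.1%, then 18.9% against 21.5%, and in the lowest, with 35 shared peaks, 11.4% against 6.25%, all with intervals that overlap. At gene ends the knockout list held 51.2% (48 to 54.5%) of shared p65 peaks, against 48.2% (46.2 to 50.2%) of those without SIN3A, and in the highest quartile 90.6% against 88.9%, again with intervals that overlap.

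Assigned to the nearest gene body within 50 kb, the shared sites fell on 1466 of 21887 protein-coding genes (6.7%). SIN3A peaks were assigned to 10150 genes (46.4%), p65 peaks to 9943 (45.4%) and peaks of both to 6291 (28.7%). So 4825 genes had both proteins with no overlapping pair. One shared site was the rule: 1401 genes had 1 and 62 had 2. Gse1 had 7, Plekha6 had 4 and Ywhaq had 3. Gse1, which encodes a subunit of a histone demethylase and deacetylase complex, drew 17 SIN3A and 25 p65 peaks in all.

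The genes of NF-κB's own inhibitors and subunits carried both proteins throughout. All 6 genes of the IκB family had SIN3A and p65 peaks, and at 5 of them the peaks overlapped, beside 6.7% of all genes. At Nfkbib, encoding IκBβ, p65 had 354.3 tags and SIN3A 43.5 tags. The Nfkbiz pair, for a nuclear IκB protein, had 317.4 p65 and 14.8 SIN3A tags, with centres 28 bp apart. At Nfkbie, encoding IκBε, p65 had 263.9 and SIN3A 14.2 tags, 18 bp apart. At these 3 pairs, all near a gene end, the highest p65 count of the gene was far above the median of 15.7 for that measure over genes with p65. The highest SIN3A count of the gene, against a median of 22.5 over genes with SIN3A, was above it at Nfkbib (43.5) and at Nfkbiz (41.5, a peak outside the pair) and below it at Nfkbie (14.2). Bcl3, an atypical IκB protein, had 238.2 p65 and 6.76 SIN3A tags at a site 5307 bp inside the gene, and Nfkbid had 229.6 and 23.8. Nfkbia, encoding IκBα, was the exception. It had 3 SIN3A and 5 p65 peaks, the nearest of which were centred 230 bp apart, just past the reach of an overlap. The SIN3A enrichment over input was low at Nfkbie (5.68-fold) and Nfkbid (4.78-fold).

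Of the 5 subunit genes, Rela, Relb, Nfkb1 and Nfkb2 had shared sites, which is 80% (37.6 to 96.4%) beside 6.7% of all genes. Relb had 403.7 p65 and 31.6 SIN3A tags at a gene end. Rela had 2 shared sites, one at the start with 99.7 p65 and 32.5 SIN3A tags, and one 955 bp past its other end with 201.9 and 20.3. Nfkb1 had 190.3 p65 and 8.05 SIN3A tags with SIN3A at 4.30-fold over input. At Rel the nearest centres were 306 bp apart and did not overlap. The median of the highest p65 tag count per gene was 290.65 in the IκB list and 201.9 in the subunit list, against that same 15.7 over all genes with a p65 peak.

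Other regulators of the pathway had a shared site less often than the IκB and subunit genes. A shared site requires both proteins, and 23.3% of the 6291 genes with both had one. Of 18 genes for A20, TRAF and IAP proteins, 13 had both and 4 had a shared site. Those counts make 72.2% and 22.2% of the list, beside 28.7% and 6.7% of all genes. Both intervals lay above the share of all genes, and that for a shared site was wide, reaching 45.2%. Tnfaip3, encoding the ubiquitin editor A20, had the highest p65 count of the whole list, 810.9 tags, beside 26.4 SIN3A tags at 210 bp, an overlap of the outermost bases. Tank, Zc3h12a and Traf2 were the others. The Zc3h12a pair lay 26160 bp outside the gene, with p65 at 5.24-fold over input. Tnip1, Traf3 and Cyld had both proteins apart, with centres 4458, 373 and 314 bp from each other at the nearest. Of 18 genes for the IL-1 receptor and the IκB kinases, 9 had both and 2 had a shared site, Irak2 and Tab1. That share, 11.1% (3.10 to 32.8%), has an interval that holds the 6.7% of all genes. At Irak2 and Tab1 p65 had 11.8 tags or fewer in the pair. Map3k7, encoding the kinase TAK1, had both proteins 335 bp apart.

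Cytokine and chemokine genes, the classic secreted products of NF-κB, had p65 almost without SIN3A. Of 21 genes, 17 had a p65 peak and 1 a SIN3A peak, beside 45.4% and 46.4% of all genes. That gene was Csf1, with a shared site of 133.2 p65 and 22.5 SIN3A tags at its start. Tnf (319.8 p65 tags at the highest peak), Il15 (180.1), Cxcl1 (117.1) and Ccl20 (92.8), named after their values were seen, had no SIN3A peak. Cxcl10 is counted without p65 because a p65 peak of 289.2 tags, 152 bp before its start, lies inside the body of Art3 and was assigned there. All 14 genes for inducible enzymes and survival proteins had p65 and 8 had SIN3A, but none had a shared site. The nearest centres were 596 bp apart at Gadd45b, 304 bp at Sod2, the mitochondrial superoxide dismutase, and 1577 bp at Hmox1, and the interval for 0 of 14 reaches 21.5%.

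**Figure D5:**
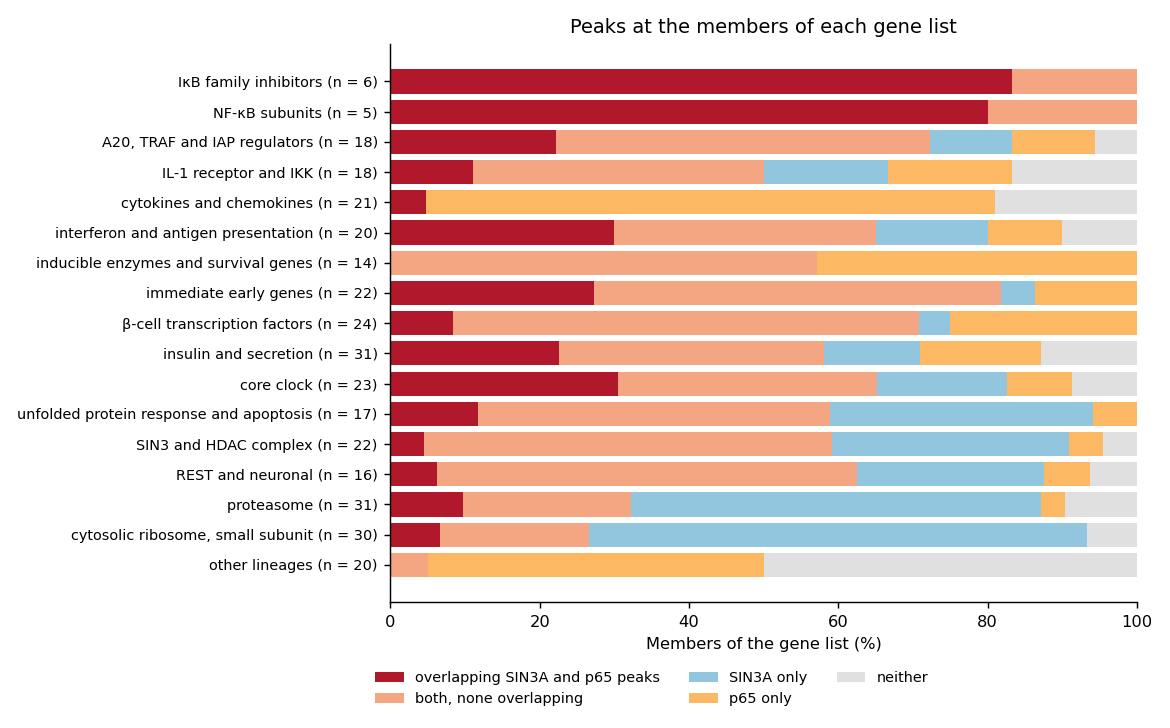
Share of the members of 17 gene lists, in %, that have overlapping SIN3A and p65 peaks (red), peaks of both that do not overlap (salmon), SIN3A only (blue), p65 only (orange) or neither (grey), with the number of members in brackets. All 6 IκB genes have both proteins and 5 a shared site, whereas 1 of 21 cytokine and chemokine genes has SIN3A.

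Genes of the interferon response and antigen presentation had 6 shared of 20 (30%, 14.5 to 51.9%), beside 6.7% of all genes. Among the 6 were Irf1, Stat3, Socs1, Socs2 and Tap1. At Irf1, an inducible transcription factor, p65 had 179.5 and SIN3A 23.5 tags. Stat3, a transcription factor of cytokine signalling, had 38.9 p65 and 11.6 SIN3A tags with centres 7 bp apart, 7845 bp inside the gene. H2-D1, H2-K1 and Tapbp, of antigen presentation, had both proteins without overlap, the nearest centres being 315 bp apart at H2-D1 and 866 bp at Tapbp. Immediate early genes, which respond without new protein synthesis, had both proteins at 18 of 22 and a shared site at 6: Klf10, Btg2, Atf3, Dusp1, Ier5 and Klf4. These are 81.8% and 27.3% (13.2 to 48.2%) of the list, beside 28.7% and 6.7% of all genes. Btg2, an antiproliferative gene, had 88.5 p65 and 34.1 SIN3A tags at its start.

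Core clock genes had 7 shared of 23, namely Arntl, Per3, Nr1d1, Bhlhe40, Clock, Rora and Tef. That is 30.4% (15.6 to 50.9%), beside 6.7% of all genes. The list median for the highest p65 count was 26.0 tags. Arntl, which encodes BMAL1, had 35.7 p65 and 12.2 SIN3A tags 28570 bp inside the gene, and the p65 centre lay 329 bp and the SIN3A centre 424 bp before a listed start. Nr1d1, encoding the repressor REV-ERBα, had centres 1 bp apart, with 26.9 p65 and 19.3 SIN3A tags, 8180 bp outside the gene. At these 7 genes no pair had both peaks at 8-fold over input, a limit that left few pairs in most lists. Counting for each gene its pair with most p65 tags, 18 of the 53 listed genes with a shared site met it, with 3 of 5 IκB, 3 of 4 subunit, 1 of 6 interferon, 2 of 6 immediate early and 2 of 7 insulin and secretion genes. On that count no shared gene of the proteasome, ribosome, SIN3 or REST lists met it. Scn3a, of the REST list, had another pair that did, with SIN3A at 43.36-fold and p65 at 10.67-fold (10.6 p65 tags). Nr1d2 and Per1 had both proteins without overlap, with nearest centres 355 and 5262 bp apart.

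β-cell transcription factor genes had both proteins at 17 of 24 and a shared site at 2, which is 8.33% beside 6.7% of all genes. At Myt1, a zinc finger factor of endocrine and neural cells, p65 had 23.5 and SIN3A 18.4 tags with centres 182 bp apart. Mlxipl, a glucose-responsive factor, had both proteins with nearest centres 2359 bp apart, St18 5096 bp and Glis3 1430 bp. Genes of insulin production and secretion had 7 shared of 31 (22.6%, 11.4 to 39.8%), beside 6.7% of all genes. Pcsk2, a proinsulin convertase, had 56.6 p65 and 21.6 SIN3A tags, and Abcc8, a subunit of the ATP-sensitive potassium channel, had 36.2 p65 and 14.8 SIN3A tags. Syt7, Ptprn2, Snap25 and Glp1r also had a shared site. The Snap25 pair lay 33780 bp outside the gene, with p65 at 4.49-fold over input. The Ptprn2 pair lay inside the gene, 124152 bp from a gene end, with SIN3A at 5.16-fold and p65 at 5.22-fold. At Glp1r p65 had 7.66 tags in the pair. Cpe and Ero1b had both proteins 352 and 222 bp apart at the nearest.

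Proteasome, small ribosomal subunit and SIN3 complex genes nearly all had SIN3A, and fewer of them had p65. Over all genes 46.4% had SIN3A and 45.4% had p65. p65 was at 35.5% (21.1 to 53.1%) of proteasome, 26.7% (14.2 to 44.4%) of ribosome and 63.6% (43.0 to 80.3%) of SIN3 complex genes. Only the ribosome interval lay below the p65 share of all genes. Proteasome genes had SIN3A at 27 of 31 and p65 at 11, with 3 shared sites, at Psmd3, Psma6 and Psma4. Genes of the small ribosomal subunit had SIN3A at 28 of 30 and p65 at 8, with 2 shared, among them Rps19. Genes of SIN3 and histone deacetylase complexes had SIN3A at 20 of 22 and p65 at 14, with 1 shared site, at Suds3. Suds3, a core SIN3 subunit, had 47.7 SIN3A and 18.1 p65 tags. Genes of REST and neuronal function had 1 shared of 16, Scn3a, with pairs 42634 and 41919 bp outside the gene. Those of the unfolded protein response and apoptosis had 2 of 17, Herpud1 and Trib3. The shared sites were on 9.68% of proteasome, 6.67% of ribosome, 4.55% of SIN3 complex, 6.25% of REST and 11.8% of unfolded protein response genes, and every interval held the 6.7% of all genes. Markers of other lineages had SIN3A at 1 of 20, Ttr, and no shared site. They had p65 at 10 (50%, 29.9 to 70.1%), an interval that holds the 45.4% of all genes. Long genes take up more peaks under nearest-gene assignment, as Rora with 21 p65 and 5 SIN3A peaks, and the lists were not matched on length.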

How the data were processed

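The members and gene lists were chosen with earlier results of these data known. Peak lists, 1 for each of 10 groups, were used as deposited. Per the file headers the authors called peaks with HOMER findPeaks at 4-fold over input and over the local 10 kb, with a false discovery rate of 0.001 and fragments of 100 bp, and no header tells if replicates were pooled. The deposited signal is a tag count per 10 M tags, the deposited score is HOMER's, and the deposited ratio is the fold over input. The submitters' processing notes name mm10, Bowtie2 and HOMER, without versions. Peak centres were set against 21887 protein-coding genes of RefSeq (GRCm38.p6, the assembly of mm10) and assigned to the nearest gene body within 50 kb, and all 338 listed genes matched. Overlaps, Wilson intervals and motif counts were computed in Python 3.11.15 with pandas 2.3.3 and NumPy 2.4.6, and tested on simulated data. Named pairs are the first 10 of each distance class by the lower of both percentile ranks, single peaks the first 5 by tags, and listed genes up to 5 shared and 3 unshared by p65 tags. Some genes that this rule names are not reported here, and a few shared members below the first 5 are. The order of the unshared genes was set after values were seen. Exceptions named beside them, the printed promoters, the κB consensus and an alternative with under 20 input tags were chosen after values were seen. Other overlap rules, thresholds, list lengths and distances were the alternatives.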

Additional observations from a re-analysis of the deposited data

How the results depend on the processing

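With a reciprocal overlap of 50%, the shared share of SIN3A peaks was 6.64% in all, 4.95% at gene ends and 10.3% away, and that of p65 peaks 2.77, 13.5 and 1.52%. With centres within 100 bp these were 6.49, 4.90 and 9.92% of SIN3A and 2.71, 13.4 and 1.47% of p65 peaks. Counting peaks within 500 bp gave 25.5, 22.3 and 32.4% of SIN3A and 10.4, 58.1 and 4.78% of p65 peaks. At 8-fold over input or more they were 4.59, 3.57 and 7.14% of SIN3A and 2.37, 15.1 and 1.15% of p65 peaks. With lists of equal length they were 7.93, 5.78 and 12.6% of SIN3A peaks, and 7.93% in all and 4.62% away for p65. With gene ends reaching 2 kb, 19.5% of SIN3A peaks away, 22.2% of p65 peaks at gene ends and 2.43% of p65 peaks away were shared, and with 500 bp 16.0, 33.2 and 2.98%. Genes with a shared peak numbered 788 with reciprocal overlap, 390 at 8-fold and 931 with equal lengths, against 1466 as reported and 1364 within 10 kb. In all 8 settings SIN3A was shared more often away from gene ends, by 1.45 to 2.17 times, and p65 more often at gene ends, by 6.20 to 13.1 times. The cause of these moves was not tested beyond the construction of each rule. Leaving out peaks with 20 or more input tags, chosen after seeing the data, gave 12.3% of SIN3A and 5.16% of p65 peaks.

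No paired analysis was possible because each group has 1 peak list with no value per replicate, and leaving out a replicate was not run for the same reason. The spread between samples is therefore unknown. The lists differ in depth and threshold, and a peak missing from a list is not shown to be unbound.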
